A study of Mus musculus with 6 samples.

Results

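The genes described here are 10 that thymocytes switch on when the T cell receptor (TCR) is engaged: Itm2a, Cd69, Cd5, Nr4a1, Nr4a3, Egr2, Egr3, Gadd45b, Tnfrsf9 and Cd53. They were picked by symbol out of 22298 listed genes, and all 10 were listed and had enough counts to be tested. Messenger RNA was profiled in thymocytes labelled double-negative, the precursors that lack both CD4 and CD8 at the surface, taken from untreated C57BL/6 mice. The mutant mice were Toxf/fPdcd1Cre, in which both alleles of Tox are flanked by recombination sites and a Pdcd1Cre allele is carried in addition, Pdcd1 being the gene of the receptor PD-1. The labels do not say which cells that Cre acts in. Toxf/f mice, with the same flanked alleles and no Cre in their label, served as controls. There were 3 samples per genotype; replicate 3 was 4 weeks old and the others were 3 weeks old. Toxf/f replicates 1 and 2 had files with the same values and the same column name, and they were counted as 1 library, called the shared Toxf/f library here. The comparison therefore rests on 3 Toxf/fPdcd1Cre libraries against 2 Toxf/f libraries. Whether each sample is a separate mouse is not labelled, and the p-values therefore reflect only how these libraries spread, which may be technical.

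A developing thymocyte is kept alive and allowed to mature when its TCR binds self-peptide on thymic epithelium with moderate strength, a step called positive selection. The signal runs through calcium, Ras and NF-kappaB pathways to a set of early genes: transcription factors of the NR4A and EGR families first, then surface proteins such as CD69 and CD5 that mark the signalled cell. TOX is itself induced by this signal and is needed for CD4 lineage cells to form. In thymocytes the levels of NR4A, EGR and CD5 products are widely read as measures of signal strength.

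Libraries held 14245492 to 16199195 estimated counts. The label says double-negative, yet Cd4 transcripts stood at 717.8 to 981.7 CPM (counts scaled for library size and composition) in Toxf/fPdcd1Cre and 844.9 and 909.2 CPM in Toxf/f libraries. Cd8a stood at 1626 to 2017 CPM in Toxf/fPdcd1Cre and 1395 and 1851 CPM in Toxf/f libraries. The summed level of 18 genes of pre-selection double-positive cells, Rag1 and Cd8a highest among them, was 13440 to 17190 CPM in Toxf/fPdcd1Cre and 13550 to 14780 CPM in Toxf/f libraries. The share of such cells in the libraries was not tested. Toxf/fPdcd1Cre replicate 1 stood apart from the other libraries, with 1 count of the chromosome Y gene Ddx3y against 843 to 1354 in the other 4. Its value on the first principal component, which held 50.67% of the variance, was -8.19, against 35.8 and 37.9 in the other Toxf/fPdcd1Cre libraries and -25.4 and -40.2 in the Toxf/f libraries. Tox, the targeted gene, had 19.2, 16.4 and 13.8 CPM in Toxf/fPdcd1Cre libraries, against 121.4 and 105.2 CPM in Toxf/f libraries, a log2 fold change of -2.78 ± 0.157 (SE; edgeR adjusted p = 2.75e-07). Counts are per gene, so exons outside the flanked part are included. Pdcd1, whose name the Cre bears, had 0 counts in each Toxf/fPdcd1Cre library, against 19 in the shared Toxf/f library and 0 in Toxf/f replicate 3.

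Of the 10 genes 6 were lower in Toxf/fPdcd1Cre libraries past the threshold (edgeR's quasi-likelihood test, Benjamini-Hochberg adjusted p under 0.05 over 14121 tested genes): Itm2a, Tnfrsf9, Gadd45b, Nr4a1, Nr4a3 and Cd53. Over all tested genes, 1.54% were called lower. Among the 10 genes 0 were called higher, against 0.149% of all tested genes. An unadjusted p under 0.05 was reached by 8 with lower and 0 with higher levels, where 7.09% of all tested genes were lower by that measure. DESeq2 and limma-voom each called 7 of the 10 lower and 0 higher. Over all 14121 tested genes DESeq2 called 316 lower and 43 higher, and limma-voom 280 lower and 17 higher, against 218 and 21 in edgeR. In 8 of the 10 genes every Toxf/fPdcd1Cre library was below both Toxf/f libraries, against 13.5% of all tested genes. The median log2 fold change of the 10 was -1.05, against 0.03 over all tested genes. The genes were proposed with results of these data in view, so these counts describe them and carry no test of the group. In sorted bulk RNA fewer cells that hold a transcript and less of it per cell cannot be told apart.

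**Figure D1:**
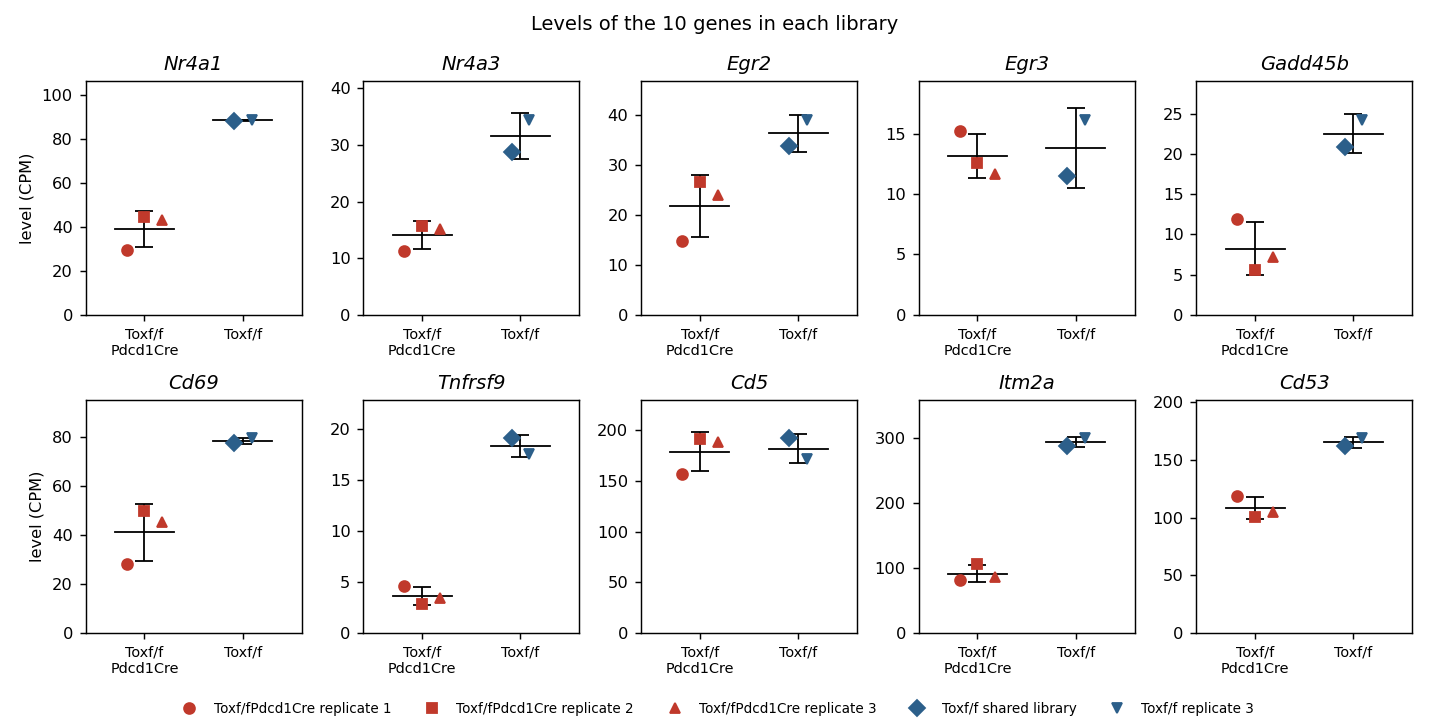
Level in CPM (y axis, from 0, a scale for each gene) of each of the 10 genes in the 3 Toxf/fPdcd1Cre libraries (red, left) and the 2 distinct Toxf/f libraries (blue, right); horizontal lines are means and bars are SD. Only Egr3 and Cd5 have overlapping genotypes; Itm2a lies at 81.7 to 106.1 CPM in Toxf/fPdcd1Cre and 288.6 to 299.9 CPM in Toxf/f libraries.

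Because the 2 Nr4a genes fell by nearly the same amount, and Egr2 is induced by the same signal, the sequence before their start sites is shown here. These are RefSeq promoter windows on GRCm38.p6, 250 bases before an annotated start, shown without bases that GENCODE M21 annotates as exon and with 3 motifs in capitals on either strand. The motifs are the core of the cyclic AMP response element (CRE core, TGACG), the EGR site (GCGTGGGCG or GCGGGGGCG) and the CArG box bound by serum response factor.
Nr4a1, chr15:101266596-101266845, plus strand: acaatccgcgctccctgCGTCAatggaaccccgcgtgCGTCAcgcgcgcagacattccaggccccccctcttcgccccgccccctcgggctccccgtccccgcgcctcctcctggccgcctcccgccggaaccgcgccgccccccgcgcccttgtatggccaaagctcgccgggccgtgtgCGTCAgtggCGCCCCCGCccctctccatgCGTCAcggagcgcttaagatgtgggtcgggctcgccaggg
Nr4a3, chr4:48045055-48045152, plus strand: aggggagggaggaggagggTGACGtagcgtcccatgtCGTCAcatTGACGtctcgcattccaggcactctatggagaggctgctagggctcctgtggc
Egr2, chr10:67537619-67537868, plus strand: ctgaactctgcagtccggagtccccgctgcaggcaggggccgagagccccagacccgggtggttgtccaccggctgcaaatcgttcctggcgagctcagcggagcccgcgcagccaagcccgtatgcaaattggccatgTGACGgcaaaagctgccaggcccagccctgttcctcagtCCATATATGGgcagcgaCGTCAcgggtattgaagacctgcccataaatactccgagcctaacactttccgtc

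The Nr4a1 and Nr4a3 windows each held 4 CRE cores, the Nr4a3 window 1 of them in the part not shown. Of 32851 RefSeq promoter windows of the same length, 17.8% held at least 1 CRE core and 0.137% held 4 or more. The Nr4a1 window also held an EGR site, 60 to 52 bases before the start, a motif found in 3.06% of windows. A CArG box stood in 4 of 5 annotated Egr2 windows, of which several overlap, and in 1.47% of all windows. RefSeq windows were matched for 8 of the 10 genes, not for Cd69 and Egr3. Itm2a had 1 CRE core. Cd5, Cd53, Gadd45b and Tnfrsf9 held none of the 3 motifs. The full CRE (TGACGTCA, which contains the core on both strands), the NR4A site (AAAGGTCA) and the NF-kappaB site were found in none of the 8, an AP-1 site (TGANTCA) in Tnfrsf9, and an NFAT-like stretch (GGAAAA) in Egr2 and Tnfrsf9, against 1.55%, 1.34%, 0.14%, 6.75% and 20.4% of all windows. The CRE core was added to the search after these sequences had been seen, and a match describes the letters only.

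Gene positions below are those of GENCODE M21 on GRCm38. Among the transcription factors, both NR4A genes were lower, Egr2 had lower values that did not pass the test, and Egr3 did not separate the genotypes. Nr4a1 (chr15:101254269-101274795, plus strand) encodes NUR77, an orphan nuclear receptor that rises within minutes of TCR engagement and acts in the death of strongly signalled cells. It had 29.6, 44.4 and 43.1 CPM in Toxf/fPdcd1Cre replicates 1, 2 and 3, against 88.6 CPM in the shared library and 88.8 CPM in replicate 3 of Toxf/f. The Toxf/f libraries were nearly equal and all Toxf/fPdcd1Cre libraries lay far below them. This is a log2 fold change of -1.18 ± 0.167 (SE; adjusted p = 0.0022). Nr4a3 (chr4:48045153-48086447, plus strand), a related receptor that binds the same DNA element, had 11.2, 15.8 and 15.2 CPM in Toxf/fPdcd1Cre and 28.8 and 34.4 CPM in Toxf/f libraries. Per length its level was among the lowest of the 10, at 2.47 ± 0.419 FPKM (a measure scaled for gene length and depth; SD, n = 3) in Toxf/fPdcd1Cre and 5.93 ± 0.827 FPKM (SD, n = 2) in Toxf/f libraries. Nr4a3 thus had a log2 fold change of -1.17 ± 0.183 (SE; adjusted p = 0.00393), the same size as that of Nr4a1.

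Egr2 (chr10:67535475-67542188, plus strand) encodes a zinc-finger factor that thymocytes need for efficient positive selection. It had 14.8, 26.6 and 24.1 CPM in Toxf/fPdcd1Cre libraries, against 33.8 and 39.1 CPM in Toxf/f libraries. No library of one genotype reached into the range of the other, yet replicate 1 of Toxf/fPdcd1Cre lay well under its partners. The log2 fold change of -0.74 ± 0.222 (SE) did not pass (adjusted p = 0.197). It passed without Toxf/fPdcd1Cre replicate 2 (-0.91, adjusted p = 0.0214), and not without replicate 1 (-0.56, adjusted p = 0.0892) or replicate 3 (-0.82, adjusted p = 0.318). Without the shared Toxf/f library and without Toxf/f replicate 3 the log2 fold change was -0.83 and -0.63. The length implied by the deposited counts and FPKM of Egr2 varied between libraries from 2311 to 2947 bases, so that the ratio of mean FPKM, -0.61 on the log2 scale, was nearer to 0 than that of mean CPM, -0.74. Egr3 (chr14:70077203-70082614, plus strand), a close relative with overlapping roles, had 15.2, 12.6 and 11.7 CPM in Toxf/fPdcd1Cre and 11.5 and 16.1 CPM in Toxf/f libraries. The genotypes overlapped, with both Toxf/f libraries at the ends of the range. Its log2 fold change was -0.07 ± 0.216 (SE; adjusted p = 0.97), and it turned positive without Toxf/f replicate 3 (0.20) or without Toxf/fPdcd1Cre replicate 3 (0.01). Whether the effect on Egr3 differs from that on Egr2 was not tested.

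Gadd45b (chr10:80930073-80932204, plus strand) encodes a stress sensor that activates p38 and JNK kinase signalling in T cells. It had 11.9, 5.62 and 7.15 CPM in Toxf/fPdcd1Cre libraries, against 20.8 and 24.2 CPM in Toxf/f libraries. Every Toxf/fPdcd1Cre library was lower, replicate 1 the least so. Its log2 fold change was -1.46 ± 0.275 (SE; adjusted p = 0.0244), a level 2.74-fold lower. Without Toxf/fPdcd1Cre replicate 1 it was -1.86 (adjusted p = 0.00224).

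The surface proteins ranged from the strongest fall of the 10 to no separation. Tnfrsf9 (chr4:150914562-150946102, plus strand), the gene of the co-stimulatory TNF receptor CD137, is induced on activated T cells and is carried by regulatory T cells. It had 4.65, 2.87 and 3.44 CPM in Toxf/fPdcd1Cre libraries, against 19.1 and 17.6 CPM in Toxf/f libraries. The highest Toxf/fPdcd1Cre library was still 1.92 below the lowest Toxf/f library on the log2 scale, a wider gap than in any other of the 10. Tnfrsf9 had a log2 fold change of -2.33 ± 0.246 (SE; adjusted p = 0.0001535), a level 5.02-fold lower. These values rest on 68, 45 and 50 counts in Toxf/fPdcd1Cre and 298 and 292 counts in Toxf/f libraries. Tnfrsf9 overlaps Camta1 on the opposite strand, and no source used here states whether counting used strand; Camta1 stood at a log2 fold change of -0.27 ± 0.162 (SE; adjusted p = 0.663).

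Itm2a (chrX:107397099-107403376, minus strand), a type II membrane protein whose transcript rises during positive selection, had 81.7, 106.1 and 86.9 CPM in Toxf/fPdcd1Cre libraries, against 288.6 and 299.9 CPM in Toxf/f libraries. Per length it had the highest level of the 10 in Toxf/f libraries, and every Toxf/fPdcd1Cre library lay far below both of them. For Itm2a the log2 fold change was -1.68 ± 0.145 (SE; adjusted p = 3.18e-05), a level 3.21-fold lower and the fifth smallest p of all tested genes. Per length it was at 51.6 ± 6.33 FPKM (SD, n = 3) in Toxf/fPdcd1Cre and 172.8 ± 7.25 FPKM (SD, n = 2) in Toxf/f libraries. Itm2a lies on the X chromosome, and when the library with almost no Ddx3y was left out its log2 fold change was -1.65 (adjusted p = 0.0008019).

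Cd69 (chr6:129267325-129275436, minus strand), the C-type lectin that holds signalled thymocytes in the thymus by binding the egress receptor S1PR1, had 28.1, 49.9 and 45.3 CPM in Toxf/fPdcd1Cre libraries, against 77.6 and 79.3 CPM in Toxf/f libraries. The Toxf/f libraries were close together and the Toxf/fPdcd1Cre libraries spread over a 1.78-fold range. With a log2 fold change of -0.93 ± 0.211 (SE) Cd69 missed the threshold (adjusted p = 0.0699). It passed without Toxf/fPdcd1Cre replicate 1 (-0.76, adjusted p = 0.0114) and without replicate 2 (-1.10, adjusted p = 0.00331), and also with DESeq2 (adjusted p = 0.00372) and limma-voom (adjusted p = 0.0233). In edgeR it did not pass without Toxf/fPdcd1Cre replicate 3 (-1.01, adjusted p = 0.134) or with age as a covariate (-0.91, adjusted p = 0.163). Without the shared Toxf/f library and without Toxf/f replicate 3 the log2 fold change was -0.945 and -0.918. Cd69 was called in 8 of 19 alternative settings.

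Cd5 (chr19:10717116-10739002, minus strand), a scavenger-receptor protein that dampens TCR signals and whose level follows their strength, had 156.6, 191.0 and 188.3 CPM in Toxf/fPdcd1Cre libraries, against 191.6 and 171.6 CPM in Toxf/f libraries. The genotypes overlapped. The log2 fold change was -0.02 ± 0.143 (SE; adjusted p = 0.985), and it was above 0 without the shared Toxf/f library (0.06) and without Toxf/fPdcd1Cre replicate 1 (0.03). Cd53 (chr3:106759921-106790149, minus strand), a tetraspanin present on most leukocytes, had 119.1, 100.8 and 104.6 CPM in Toxf/fPdcd1Cre libraries, against 161.7 and 168.4 CPM in Toxf/f libraries. It had the smallest change of the called genes, with a log2 fold change of -0.61 ± 0.132 (SE; adjusted p = 0.0298).

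**Figure D2:**
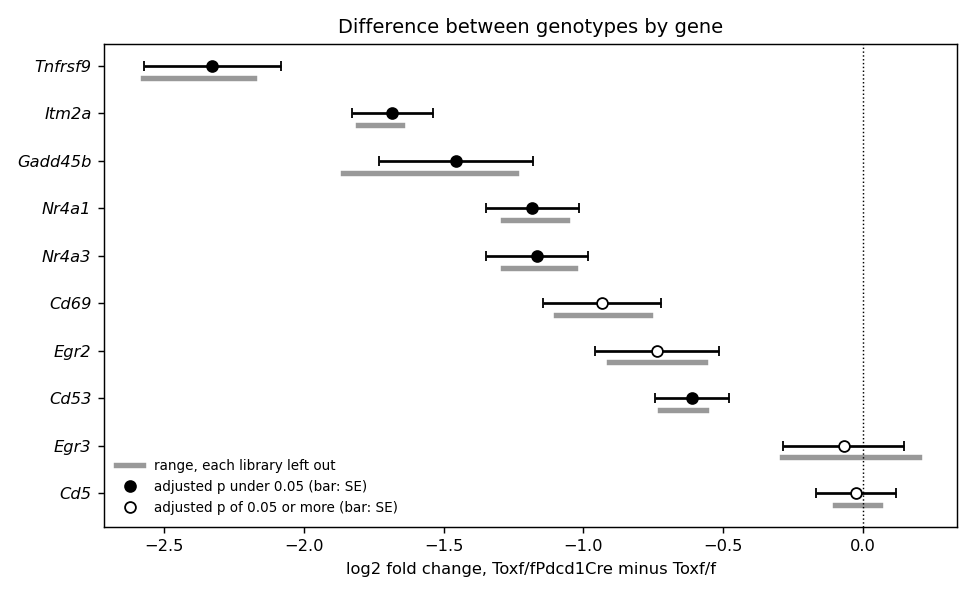
Log2 fold change of each gene, Toxf/fPdcd1Cre minus Toxf/f (x axis), with its SE; filled points have an adjusted p under 0.05, and grey bars span the values with each of the 5 libraries left out. Values run from -2.33 for Tnfrsf9 to -0.02 for Cd5, and the grey bars of Egr3 and Cd5 alone cross 0.

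With single libraries left out, fold changes stayed below 0 for all 6 called genes, while several calls were lost. Itm2a and Tnfrsf9 passed in all 5 fits that left out 1 library. Nr4a1 was not called without the shared Toxf/f library (adjusted p = 0.0806) or without Toxf/f replicate 3 (adjusted p = 0.0908), and Nr4a3 likewise (adjusted p = 0.0535 and 0.174). The log2 fold change of Nr4a1 was -1.18 in both of these fits, as with all libraries, and its SE was 0.224 and 0.221 against 0.167 with all libraries. For Nr4a3 it was -1.29 and -1.03 in the same fits, with an SE of 0.227 and 0.237. Gadd45b was not called without the shared Toxf/f library, Toxf/f replicate 3 or Toxf/fPdcd1Cre replicate 3 (adjusted p = 0.155, 0.307 and 0.0976), with log2 fold changes of -1.56, -1.34 and -1.37. Cd53 was called in 1 of the 5, that without Toxf/fPdcd1Cre replicate 1 (adjusted p = 0.0126), and its adjusted p reached 0.349 without Toxf/f replicate 3; its log2 fold change lay between -0.72 and -0.56 in all 5. The number of the 10 called lower was 2 without either Toxf/f library in turn and 7, 7 and 4 without Toxf/fPdcd1Cre replicates 1, 2 and 3. Over all tested genes 614 of 13904, 229 of 14007 and 120 of 14060 were lower in the last 3 of these fits. The same all-gene counts stand behind the list counts below for those fits. Without either Toxf/f library in turn, fewer genes were called lower over all tested genes too, compared with the fit of all libraries. Counts of calls for those 2 fits, here and below, are therefore not read as a result about the genes counted. Without a Toxf/f library the other is alone and is assumed to vary like the Toxf/fPdcd1Cre libraries.

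The Toxf/fPdcd1Cre libraries did not order the 10 genes alike. Replicate 1 was the lowest of the 3 for Nr4a1, Nr4a3, Egr2, Cd69, Itm2a and Cd5, and the highest for Gadd45b, Tnfrsf9, Egr3 and Cd53. Replicate 2 was the highest for each of the first 6 genes. The spread within the genotype was widest for Gadd45b, where the highest library had 2.12 times the lowest, followed by Egr2 at 1.80 times and Cd69 at 1.78 times. In the Toxf/f libraries the same ratio ran from 1.003 for Nr4a1 to 1.41 for Egr3. Replicate 1 also had the lowest summed level of 18 dissociation and immediate-early genes, at 3650 CPM against 5229 and 5756 CPM in Toxf/fPdcd1Cre replicates 2 and 3, and 4969 and 5681 CPM in Toxf/f libraries. Hspa8 alone made up 2610 CPM of this sum in replicate 1, 3953 and 4544 CPM in replicates 2 and 3, and 3696 and 4382 CPM in Toxf/f libraries. Replicate 1 was also the lowest of the 3 for Btg2, Fos, Fosb, Jun, Junb, Jund, Ier5, Zfp36, Hspa1a and Hspa1b. It was not the lowest for Fosl2, Atf3, Ier2, Ier3, Klf4 and Klf6. Its 20 mature single-positive genes summed to 1384 CPM against 1368 and 1283 CPM in the other Toxf/fPdcd1Cre libraries, and 1933 and 2073 CPM in Toxf/f libraries. The part of either list in the order of the libraries was not tested.

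**Figure D3:**
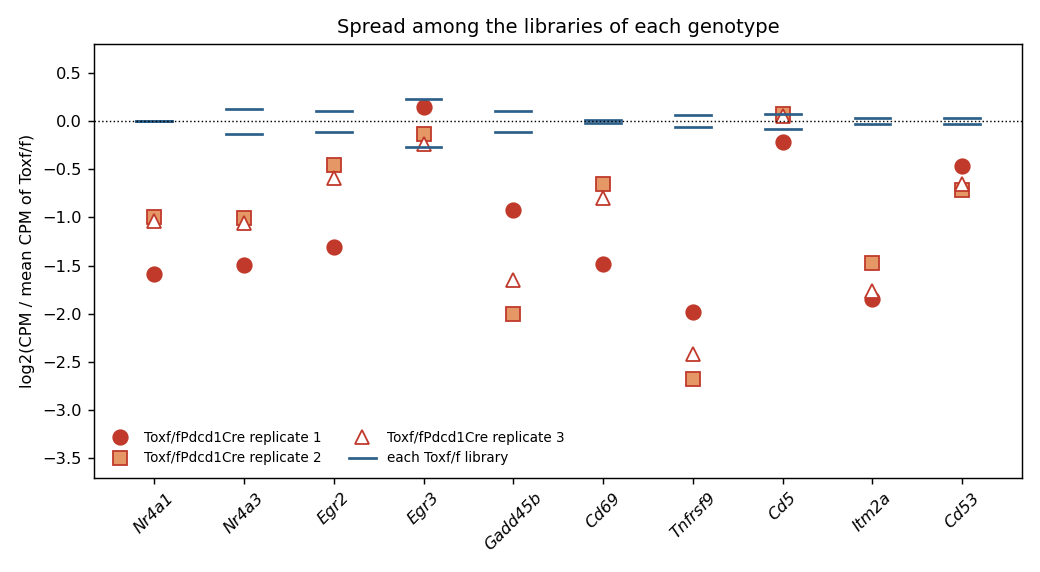
Level of each gene in each Toxf/fPdcd1Cre library (red symbols) and each Toxf/f library (blue dashes) as log2 of its CPM over the mean CPM of Toxf/f (y axis). Replicate 1 of Toxf/fPdcd1Cre (filled circles) is the lowest red symbol for 6 genes and the highest for Gadd45b, Tnfrsf9, Egr3 and Cd53.

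The direction was the same at both ages for 8 of the 10 genes. Itm2a differed by -1.62 on the log2 scale between the 3-week-old Toxf/fPdcd1Cre and Toxf/f libraries and by -1.79 between those 4 weeks old. For Tnfrsf9 the values were -2.34 and -2.35, for Nr4a1 -1.26 and -1.04, for Nr4a3 -1.09 and -1.18, and for Gadd45b -1.25 and -1.76. Cd69 stood at -0.99 and -0.81, Egr2 at -0.71 and -0.70, and Cd53 at -0.56 and -0.69. Cd5 stood at -0.14 and 0.13 and Egr3 at 0.28 and -0.47, so that their signs differed between the ages. At 4 weeks there was 1 library of each genotype, and at 3 weeks 1 distinct Toxf/f library. The interaction of genotype and age (edgeR, a fit added after the data were seen) ran from -0.74 ± 0.490 (SE) for Egr3 to 0.27 ± 0.380 (SE) for Cd5. With so few libraries this fit cannot decide whether the difference between genotypes changes with age. With age as a covariate 4 of the 10 were called, Gadd45b and Cd53 no longer (adjusted p = 0.0768 and 0.0744).

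The wider pathway was covered by lists chosen by function. Of 29 tested TCR-induced genes outside the 10, 6 were lower and 0 higher, with a median log2 fold change of -0.32; 12 lower and 0 higher had an unadjusted p under 0.05, and DESeq2 and limma-voom each called 7 lower and 0 higher. The co-stimulatory receptor gene Tnfrsf4, which encodes OX40, had 1.57, 1.47 and 0.894 CPM in Toxf/fPdcd1Cre and 13.3 and 13.0 CPM in Toxf/f libraries, a 9.92-fold lower level (adjusted p = 4.93e-05). Tagap, a GTPase-activating protein of thymocyte adhesion, fell 2.62-fold (adjusted p = 0.000785), and Rel, the NF-kappaB subunit of activated T cells, fell 1.81-fold (adjusted p = 0.00881). Tnfrsf4 passed with each library left out, while leaving out Toxf/f replicate 3 ended the calls of Tagap (adjusted p = 0.0627) and Rel (adjusted p = 0.265). The count of lower genes was 3, 1 and 9 when the shared Toxf/f library, Toxf/f replicate 3 and Toxf/fPdcd1Cre replicate 1 were left out in turn.

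The receptor-proximal kinases, adaptors and phosphatases deliver the signal, and the inhibitors damp it. Of 22 genes of proximal TCR signalling, such as the kinase gene Lck and the CD45 phosphatase gene Ptprc, 0 were called in either direction by edgeR, DESeq2 or limma-voom, 2 lower and 0 higher had an unadjusted p under 0.05, and the median was -0.03. Among 22 feedback inhibitors 2 were lower and 0 higher, with 4 lower and 0 higher at an unadjusted p under 0.05, 2 lower and 0 higher in both DESeq2 and limma-voom, and a median of -0.05. They were Btla, an inhibitory receptor, which fell 1.83-fold (adjusted p = 0.00881), and Nab2, a corepressor that binds EGR proteins, which fell 1.61-fold (adjusted p = 0.0285). Leaving out either Toxf/f library in turn ended the calls of Btla (adjusted p = 0.105 and 0.174) and Nab2 (adjusted p = 0.1245 and 0.4501), and so did leaving out Toxf/fPdcd1Cre replicate 3 for Nab2 (adjusted p = 0.1295).

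Relatives of the 10 by gene family were lower in 3 of 24 tested cases and higher in 0, with a median of -0.29 and 8 lower and 0 higher at an unadjusted p under 0.05; DESeq2 called 4 lower and limma-voom 3, and neither called any higher. The count was 1 without either Toxf/f library in turn and 5 without Toxf/fPdcd1Cre replicate 1. Besides Tnfrsf4 these were the tetraspanin gene Cd63, which fell 1.81-fold (adjusted p = 0.0114), and Tnfrsf18, the gene of the receptor GITR, which fell 1.99-fold (adjusted p = 0.0124); neither was called without either Toxf/f library in turn (adjusted p = 0.147 to 0.233). The closest relatives, singled out after their values were seen, did not pass: Egr1 at -0.39 ± 0.129 (SE; adjusted p = 0.216), Nr4a2 at -0.67 ± 0.386 (SE; adjusted p = 0.628), Gadd45g at -0.49 ± 0.387 (SE; adjusted p = 0.785) and Gadd45a at 0.07 ± 0.204 (SE; adjusted p = 0.968). Tnfsf9, the ligand of the Tnfrsf9 product, stood at -0.73 ± 0.399 (SE; adjusted p = 0.589).

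**Figure D4:**
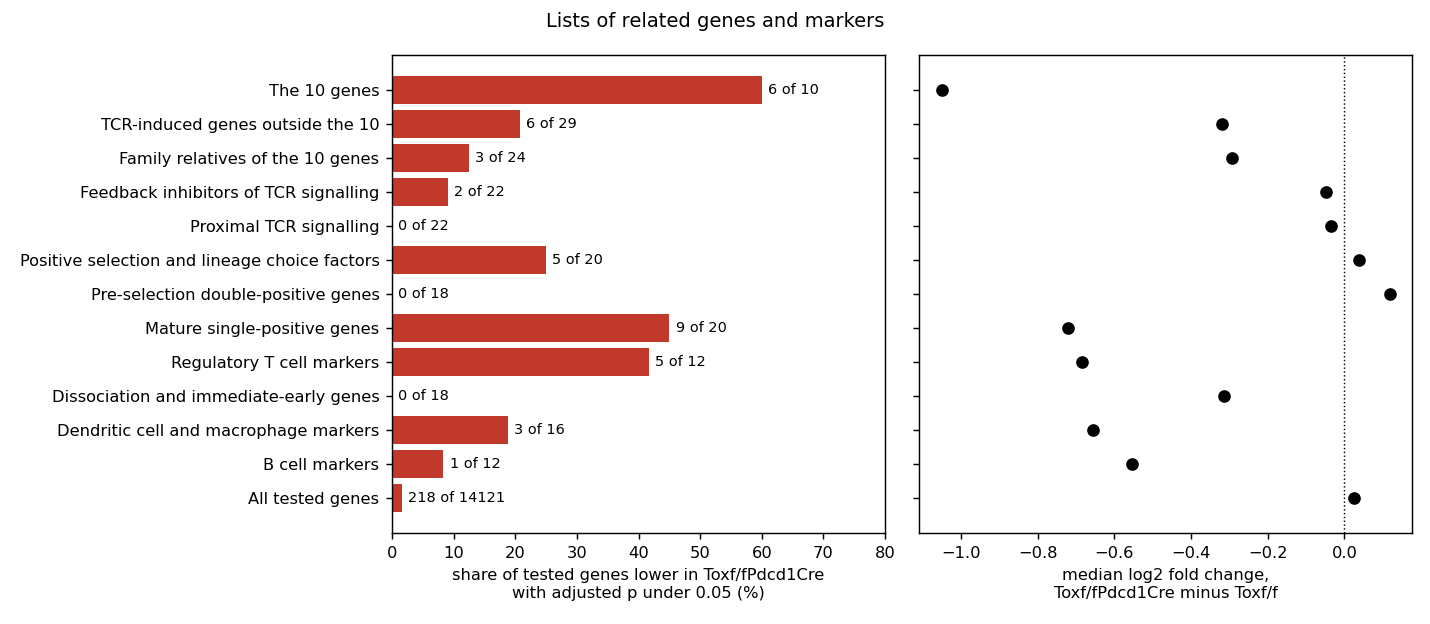
Left, share of tested genes of each list that were lower in Toxf/fPdcd1Cre with an adjusted p under 0.05, with the counts beside each bar; right, median log2 fold change of the list, Toxf/fPdcd1Cre minus Toxf/f. The 10 genes stand at 6 of 10 and a median of -1.05, proximal TCR signalling at 0 of 22 and -0.03, and all tested genes at 218 of 14121 and 0.03.

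Factors of positive selection and lineage choice were lower in 5 of 20 and higher in 0 (2 higher and 6 lower at an unadjusted p under 0.05; DESeq2 and limma-voom 5 lower and 0 higher each), with a median of 0.04. Without either Toxf/f library in turn 2 were lower, and without Toxf/fPdcd1Cre replicate 3 the count was 3. Besides Tox they included the survival gene Bcl2, which fell 2.11-fold (adjusted p = 0.000785) and passed with each library left out, and the Wnt pathway factor Lef1, which fell 1.62-fold (adjusted p = 0.0227) and was not called without either Toxf/f library in turn (adjusted p = 0.251 and 0.263). Tox was the targeted gene, and Bcl2, Lef1 and Il7r are also among the 9 mature single-positive genes called lower below. Il7r was named after its values were seen. Genes of the stage before selection gave 0 of 18 called in either direction by edgeR, DESeq2 or limma-voom, 0 lower and 1 higher at an unadjusted p under 0.05, and a median of 0.12. Genes of mature single-positive cells, the stage after it, gave 9 of 20 lower and 0 higher in edgeR, DESeq2 and limma-voom, 14 lower and 0 higher at an unadjusted p under 0.05, and a median of -0.72, with 2 lower without Toxf/f replicate 3, 5 without the shared Toxf/f library and 10 without Toxf/fPdcd1Cre replicate 1.

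Other cells in a thymus also express some of the 10 genes. Regulatory T cells carry the Tnfrsf9, Tnfrsf4 and Tnfrsf18 products, and of 12 of their markers 5 were lower and 0 higher: Tnfrsf4, Gpr83, Foxp3, Ikzf4 and Tnfrsf18, named after their values were seen. DESeq2 and limma-voom each called 5 lower and 0 higher, and 7 lower and 1 higher had an unadjusted p under 0.05. Tigit at -0.98 and Capg at -0.39 on the log2 scale were also below 0 and were not called. Fold changes were above 0 for the remaining 5, namely Nrp1 at 0.52, Il2ra at 0.13, Ctla4 at 0.11, Itgae at 0.09 and Ikzf2 at 0.03. Nrp1 was called higher by edgeR without Toxf/fPdcd1Cre replicate 2 (adjusted p = 0.0114). The count of lower markers was 3 without the shared Toxf/f library and 2 without Toxf/f replicate 3. Foxp3, the factor that defines these cells, had 0.41, 0.383 and 0 CPM in Toxf/fPdcd1Cre and 7.36 and 9.76 CPM in Toxf/f libraries (adjusted p = 0.0012), a call that ended when Toxf/f replicate 3 was left out (adjusted p = 0.0646). The 12 markers, of which Il2ra and Ikzf2 had the highest levels, summed to 296.5 to 367.6 CPM in Toxf/fPdcd1Cre and 340.0 to 389.2 CPM in Toxf/f libraries. Some of them, among these Tnfrsf4, Tnfrsf18 and Il2ra, also stand on the TCR-induced list. Dendritic cells and macrophages, like most leukocytes, carry CD53. Of 16 of their markers 3 were lower and 0 higher (10 lower and 0 higher at an unadjusted p under 0.05; 6 lower in DESeq2, 5 in limma-voom and 0 higher in both), and their sum was 1702 to 2053 CPM in Toxf/fPdcd1Cre and 3073 to 3424 CPM in Toxf/f libraries, with Cd74 and H2-Aa highest by CPM; the count was 0 without either Toxf/f library in turn and 7, 4 and 1 without Toxf/fPdcd1Cre replicates 1, 2 and 3. B cells also express Cd53 and Cd69. Of 12 of their markers 1 was lower, Fcer2a, and 0 higher (5 lower and 0 higher at an unadjusted p under 0.05; 3 lower and 0 higher in both DESeq2 and limma-voom), and their sum was 77.4 to 92.4 CPM in Toxf/fPdcd1Cre and 229.3 to 242.6 CPM in Toxf/f libraries, with Igkc highest, then Cd79b; the count was 0 without either Toxf/f library in turn and 3, 4 and 1 without Toxf/fPdcd1Cre replicates 1, 2 and 3. Most of the gap in the B cell sum lay in Igkc, which was not called (edgeR adjusted p = 0.06955). Igkc had 6.83, 18.8 and 10.7 CPM in Toxf/fPdcd1Cre and 154.9 and 110.2 CPM in Toxf/f libraries. Among the 12 B cell markers 10 had fold changes below 0, while Cd79b stood at 0.07 and Ebf1 at 0.31 on the log2 scale. None of the markers on these 3 lists was at 0 in all libraries. Of 18 dissociation and immediate-early genes, with Hspa8 and Btg2 highest, 0 were called in either direction by edgeR, DESeq2 or limma-voom, 4 lower and 0 higher had an unadjusted p under 0.05, all 18 had fold changes below 0, against 45.2% of all tested genes, and the median was -0.31. The part of these cells and of handling in the differences of the 10 genes was not tested.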

How the data were processed

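RNA came from sorted thymocytes and libraries from the NEBNext Ultra kit, per the labels' protocols, which name the DN2 stage while sample names say DN. The authors deposited 1 table per sample, holding estimated counts and FPKM for each gene, per the file headers. Submitters' processing notes name fastp 0.18.0, HISAT2 and StringTie 1.3.1; the sources used here give no build, annotation, counter or strand. The estimated counts, 8.81% to 9.84% of them not whole, were rounded; those of the 10 genes were all whole. Because Toxf/f replicates 1 and 2 had identical files, 5 libraries entered. Genes were filtered with filterByExpr (14121 kept), scaled by TMM and tested with edgeR 4.0.16 (robust quasi-likelihood test, no covariate, R 4.3.3), with Benjamini-Hochberg adjustment and a threshold of 0.05. CPM use TMM-scaled library sizes; the SE is the fold change over the root of F. DESeq2 1.42.0 and limma 3.58.1 served as alternatives. Scripts were tested on simulated data. Coordinates and exons come from GENCODE M21 (GRCm38) and promoters from RefSeq (GRCm38.p6); the files' own build may differ. The members and lists were chosen with earlier results of these data known. Named were the 10 genes, Tox, up to 3 called genes per pathway list with the smallest p and at least 1 CPM, and the 2 of each other list with the highest CPM (not corrected for length), besides the defining or called genes marked as chosen after their values were seen; some items are not reported here. Total counts limit precision for genes such as Tnfrsf9, with 45 to 298 counts a library.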

Additional observations from a re-analysis of the deposited data

Results flagged for a closer look

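Cd5 and Egr3 were singled out because the difference between genotypes pointed opposite ways at the 2 ages in every library. For Cd5, Toxf/fPdcd1Cre replicates 1 and 2 stood at -0.29 and -0.004 on the log2 scale against the shared Toxf/f library of the same age, while at 4 weeks Toxf/fPdcd1Cre stood at 0.13 against Toxf/f. For Egr3 the values were 0.41 and 0.13 at 3 weeks and -0.47 at 4 weeks. The interaction of genotype and age, a fit added after the data were seen, was 0.27 ± 0.380 (SE) for Cd5 and -0.74 ± 0.490 (SE) for Egr3, with an adjusted p of 0.9999 for both in edgeR's quasi-likelihood test and an unadjusted p of 0.478 and 0.145. At 4 weeks each genotype had 1 library, so library and age cannot be told apart.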

How the results depend on the processing

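Itm2a, Tnfrsf9 and Tox kept their direction and their call under all 19 alternatives. Nr4a1 was called in 16, Nr4a3 in 15, Gadd45b in 12, Cd53 in 11, Cd69 in 8 and Egr2 in 3, all with fold changes below 0 throughout; Cd5 and Egr3 were called in 0. The number of the 10 called lower ranged from 2 to 7 with single libraries left out, and was 2 with limma on log2(FPKM + 1) without a filter, where 18861 genes were tested. All genes called, 239 in the main test, numbered 491 without a low-count filter, 127 with at least 10 CPM in 2 libraries, 359 with DESeq2, 126 with limma on log2(FPKM + 0.1), 44 with limma on log2(FPKM + 1) without a filter, 145 with age as a covariate, 402 with the identical files counted separately, and 35 to 637 with single libraries left out. With the replicate number as a block, 500 genes were called with the shared library numbered 1 and, added after seeing the data, 830 with it numbered 2, the number in its column name, against 8 and 7 of the 10 genes. The numbers were not taken to pair the libraries. Correlations across genes of deviations from the group mean were -0.198 and 0.105 for these pairings and -0.157 for replicates 3. The deviations of the 2 Toxf/f libraries are equal and opposite, so these correlations are tied to each other and cannot decide the pairing. Signs turned for Cd5, to 0.0652 with the block numbered 2 and to a range of -0.101 to 0.0628 with single libraries left out, and for Egr3, to 0.0155 with identical files counted separately and to a range of -0.29 to 0.20 with single libraries left out. The causes were not tested.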

Other observations

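Markers of further cell types gave these values. Of 17 precursor-stage genes, with Notch1 and Il2ra highest, 2 were lower (Cd44 and Il7r) and 0 higher, with sums of 694.9 to 825.3 CPM in Toxf/fPdcd1Cre and 551.8 to 791.8 CPM in Toxf/f libraries. Without the shared Toxf/f library, Toxf/f replicate 3 or Toxf/fPdcd1Cre replicate 3 the count was 0, with an adjusted p of 0.258, 0.267 and 0.122 for Cd44 and 0.198, 0.391 and 0.102 for Il7r. Of 7 gamma-delta T cell markers, 0 were lower and 1 was higher, Trdc, whose call ended without either Toxf/f library or Toxf/fPdcd1Cre replicate 3 (adjusted p = 0.172, 0.5575 and 0.0524). DESeq2 and limma-voom each called 2 of the 7 higher, 3 were higher at an unadjusted p under 0.05, and 2 were called higher without Toxf/fPdcd1Cre replicate 1. The 11 markers of NKT and innate-like cells, with Il2rb and Ccl5 highest, gave 0 calls in edgeR (3 lower and 2 higher at an unadjusted p under 0.05), 1 lower and 2 higher in DESeq2 and 1 lower in limma-voom. In edgeR 2 of these were lower and 1 higher without Toxf/fPdcd1Cre replicate 1, 2 higher without replicate 2 and 1 higher without replicate 3. Granulocyte and mast cell markers, with S100a9 and S100a8 highest, gave 0 of 8 in all 3 tools (1 higher at an unadjusted p under 0.05), and 1 lower of 6 tested without Toxf/fPdcd1Cre replicate 1. Erythroid markers, with Hbb-bs and Hba-a2 highest, gave 0 of 6 in all 3 tools and 0 at an unadjusted p under 0.05, and 1 lower without Toxf/fPdcd1Cre replicate 2. Thymic epithelial and stromal markers, with Prss16 and Ccl25 highest, gave 0 of 15 in edgeR (1 lower at an unadjusted p under 0.05), 1 lower in DESeq2 and 2 lower in limma-voom. Without Toxf/fPdcd1Cre replicate 1 edgeR called 3 of the 15 lower, named after their values were seen: Aire at -2.36 on the log2 scale (adjusted p = 0.0008019), Krt14 at -1.65 (adjusted p = 0.00445) and Epcam at -0.73 (adjusted p = 0.0476). With all libraries these stood at -1.47, -1.29 and -0.43 (edgeR adjusted p = 0.568, 0.0652 and 0.558). In that fit 6 of the 15 had fold changes below 0 and the median was 0.15, against -0.01 without replicate 1.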
